A study of Ovis aries with 16 samples.

Results

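The data described here compare the hypothalamus of late-gestation fetal sheep that had gone through a short period of maternal hypoxia with that of normoxic fetuses, neither having received ketamine. There were 5 hypoxic (HC) and 3 normoxic (NC) fetuses, each on its own array, which is 8 of the 16 arrays of the series. In both groups an intravenous injection of saline came first. In HC the ewe then breathed a mixture low in oxygen, made by running nitrogen into the trachea for 30 min, and in NC the ewe was studied over the same 30 min with normal oxygen. Both groups then recovered in normoxia for 23.5 h, and tissue was taken 24 h after the stimulus began. The other 8 arrays came from fetuses given ketamine, a blocker of the NMDA class of glutamate receptors, before normoxia (NK, n = 4) or hypoxia (HK, n = 4). They entered the estimate of the spread and are otherwise used only at the end. The ewes were Suffolk sheep, fitted with catheters some days earlier and awake during the study, and they and the amniotic fluid had received ampicillin, so all 4 groups share surgery and an antibiotic. Nearly all fetuses were twins. It was the pregnancy that was assigned at random to hypoxia or normoxia, and the labels do not name littermates. Relatedness was therefore not modelled, and the p-values measure only the spread between these samples. The hypothalamus was taken as a block from 1 side of the brain, and its total RNA was measured in bulk, so fewer cells of a type and less RNA per cell cannot be told apart.

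Cells sense a fall in oxygen mainly through hypoxia-inducible factors, whose alpha subunits are broken down while oxygen is plentiful and otherwise switch on genes of glucose uptake, glycolysis and vessel growth. Brain hypoxia also sets off an inflammatory reaction. Receptors of innate immunity on microglia and other myeloid cells signal through the transcription factor NF-kappaB, which turns on cytokines, cyclooxygenase-2 and the adhesion molecules that bring leukocytes to the vessel wall. In the fetus, the hypothalamus also controls the hormonal stress response, in which cyclooxygenase products take part.

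Signals are given as log2 of the processed signal minus the array's own 75th percentile, and a change is the HC mean minus the NC mean on that scale, with its standard error. A probe was called when limma's two-sided p was under 0.05 without adjustment, the threshold of the study's methods. Of the 12249 tested probes, 998 were called, 8.15% of those tested, of which 517 (4.22%) were higher and 481 (3.93%) were lower in HC. After Benjamini-Hochberg adjustment limma called none (smallest adjusted p = 0.272), and no adjusted p is under 0.05 for any gene named below. Leaving out the fetus HC5 left 64 probes past adjustment. For 604 probes, 4.93% of those tested, no HC array lay within the range of the NC arrays, and 446 of these were also called. The share of probes well above background was 71.7% to 80.6% per array. The HC arrays differed among themselves more than the NC arrays did, with a median SD over probes of 0.240 against 0.159. Slide accounted for 87.5% of the spread of the first principal component, which held 22.6% of the variance. NC1, NC2, HC1 and HC2 lay on slide 1 and NC3, HC3, HC4 and HC5 on slide 2. Only 1656 of the 15008 probes carried a gene name, so the genes below are a small part of what changed. Among named genes, 83 were called higher, by a median of 1.16 log2 units, and 28 were called lower, by a median of -0.41.

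The probes are 60 bases long. Those of 4 genes on which the results turn are shown to identify what was measured, written 5′ to 3′. HIF1A is shown with both of its probes, whose shared bases are in capitals, because they measured an overlapping stretch and are not separate evidence. The position of each probe in its transcript was not determined.
IRF1: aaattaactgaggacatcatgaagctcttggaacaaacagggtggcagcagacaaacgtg
NFKBIA: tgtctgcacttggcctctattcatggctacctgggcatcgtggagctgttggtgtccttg
ICAM1: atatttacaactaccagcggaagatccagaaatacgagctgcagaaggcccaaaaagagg
HIF1A, A_70_P041637: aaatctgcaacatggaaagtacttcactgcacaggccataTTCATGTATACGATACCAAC
HIF1A, A_70_P041636: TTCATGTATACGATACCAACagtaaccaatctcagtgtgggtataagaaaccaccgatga

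PTGS2 and NFKBIA were higher after hypoxia on every HC array than on any NC array. PTGS2, which encodes the inducible cyclooxygenase-2, measured -2.32, -2.47 and -2.25 on NC1 to NC3 and 0.64, 0.53, 0.08, 2.34 and -0.54 on HC1 to HC5. All 5 HC arrays lay above all 3 NC arrays, with HC4 highest and HC5 lowest. The change was 2.95 ± 0.55 (SE), or 7.73-fold (adjusted p = 0.272), and the call held in each of the 17 other settings tried. A second and much dimmer PTGS2 probe differed by 0.92 ± 0.78. NFKBIA, the inhibitor of NF-kappaB that NF-kappaB itself induces, measured 0.48, 0.80 and 0.70 in NC and 2.56, 1.89, 2.10, 2.75 and 0.82 in HC. Its groups did not overlap either, although HC5 sat just above the highest NC array, and the change was 1.37 ± 0.36, or 2.58-fold (adjusted p = 0.342). SOD2, the mitochondrial superoxide dismutase and the other tested member of the NF-kappaB list, differed by 0.30 ± 0.27. Among the 7 tested genes of arachidonic acid metabolism PTGS2 alone was called, and 1 gene was also called lower without HC1, HC4 or HC5. The constitutive cyclooxygenase PTGS1 differed by 0.37 ± 0.33 and the prostaglandin receptors PTGFR, PTGER4 and PTGER3 by 0.56, 0.39 and 0.19. The prostaglandin D synthase PTGDS was saturated on all 8 arrays and can show no change.

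**Figure D1:**
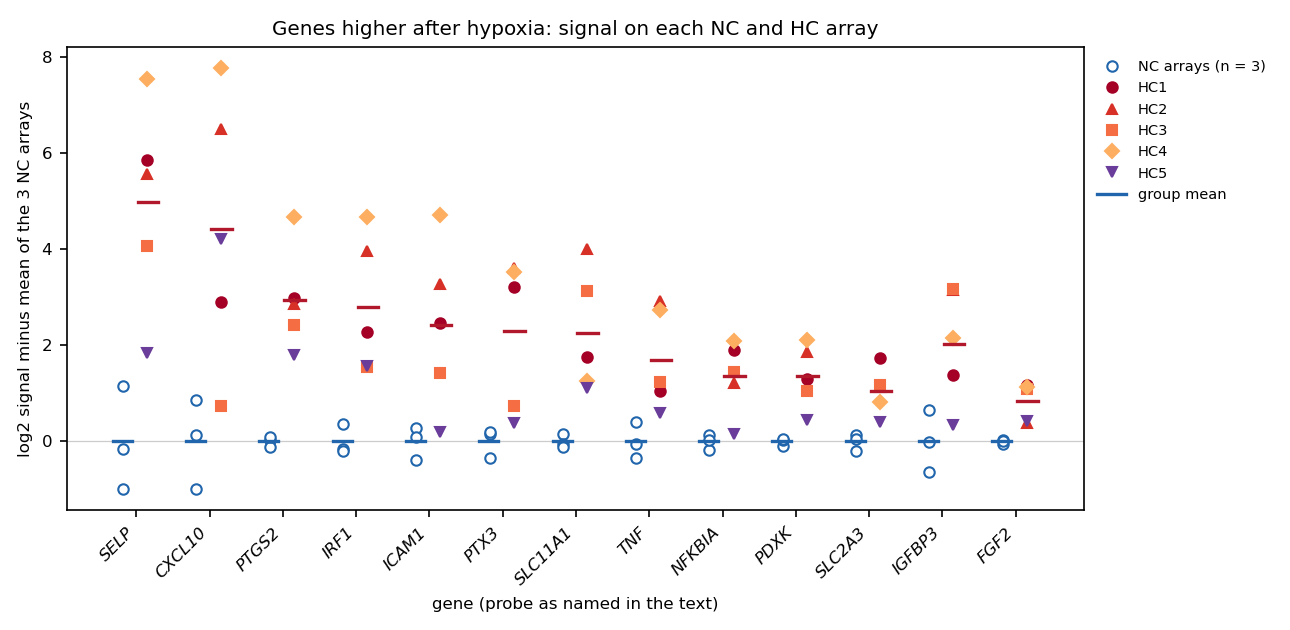
Signal of 13 genes on each NC and HC array (y axis, log2 signal minus the mean of the 3 NC arrays; x axis, gene), with open blue circles for the NC arrays, filled symbols for HC1 to HC5 and short lines for the group means. PTGS2, IRF1, NFKBIA and SLC2A3 show no overlap between the groups, and HC5, the purple triangle, is the lowest HC array for SELP, PTGS2, ICAM1, PTX3 and NFKBIA.

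Receptors that recognize microbes and damaged cells made up a further group. Of 16 tested receptors and adaptors, 6 were called higher and none lower, and 14 of the differences were positive, with a median of 0.29. The called members were the C-type lectins CLEC6A (Dectin-2) and CLEC4E (Mincle), the soluble pentraxin PTX3, the lipopolysaccharide co-receptor CD14 and the Toll-like receptors TLR2 and TLR4. The count was 3 without NC3. The Toll-like receptors TLR3, TLR5, TLR6 and TLR7 differed by 0.21, 0.08, 0.07 and -0.12 and were not called. Neither were the adaptor MYD88 (0.25 ± 0.23), the kinase IRAK4 (0.32) and the lectin CLEC7A (Dectin-1; 0.10 ± 0.43).

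CLEC6A gave a rise in both of its probes, which share no long stretch of sequence and are therefore shown.
CLEC6A, A_70_P008212: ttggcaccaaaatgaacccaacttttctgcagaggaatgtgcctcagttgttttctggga
CLEC6A, A_70_P008211: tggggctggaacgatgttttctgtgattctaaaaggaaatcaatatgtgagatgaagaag
The first measured -7.52, -7.69 and -7.76 in NC and -6.22, -2.41, -4.50, -4.80 and -6.00 in HC. It was well above background on no NC array and on 4 HC arrays, so only a bound can be given, at least 2.15-fold higher. The bound divides the HC mean by an NC mean in which each array's value is the probe's signal or, where that is brighter, the dimmest signal well above background. The second CLEC6A probe was at least 1.51-fold higher. HC2 was the highest array with both. CLEC4E, also well above background on no NC array, was at -7.15, -2.05, -4.16, -5.71 and -7.59 on HC1 to HC5, at least 1.47-fold higher. HC2 and HC3 carried most of this, and the CLEC4E call was lost without NC1, NC2, NC3, HC2 or HC3. With normexp background correction or the deposited log2 table neither CLEC6A nor CLEC4E was called.

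PTX3, which binds microbes and complement, measured -4.12, -4.63 and -4.09 in NC and -1.07, -0.66, -3.53, -0.74 and -3.89 in HC. HC1, HC2 and HC4 were well separated from NC while HC3 and HC5 were near it, and the change was 2.30 ± 0.71, or 4.91-fold. With the deposited table the PTX3 change was 1.35. CD14 measured -2.90, -2.87 and -2.75 in NC and -1.59, -0.18, -1.24, -1.01 and -3.46 in HC. HC5 lay below every NC array for CD14, so the groups overlapped although the change was 1.34 ± 0.59. The CD14 call was lost on leaving out any array but HC5. TLR2 measured -4.30, -4.0 and -3.79 in NC and -2.92, -2.75, -3.06, -2.0 and -3.63 in HC. These groups did not overlap, the change was 1.16 ± 0.29, and the call held in every setting. The TLR2 change was 0.63 with normexp correction and 0.50 with the deposited table. TLR4 measured -5.07, -5.15 and -5.21 in NC and -4.87, -3.36, -4.92, -3.81 and -4.80 in HC. Its change of 0.79 ± 0.30 came mainly from HC2 and HC4, and the TLR4 call was lost without NC3.

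Of 16 tested cytokines, 3 were called higher, the pro-inflammatory TNF and IL1B and the interleukin-1 receptor antagonist IL1RN, and none lower, with a median over the list of 0.11. TNF measured -4.63, -5.09 and -5.38 in NC and -3.97, -2.12, -3.80, -2.30 and -4.45 in HC. Every HC array exceeded every NC array for TNF, and the change was 1.70 ± 0.62, or 3.26-fold, with the call lost without NC3. With the deposited table the TNF change was 0.59. IL1B measured -2.25, -2.55 and -2.18 in NC and -0.58, -1.64, -2.21, 0.17 and -1.96 in HC. HC3 was within the NC range for IL1B, and the change was 1.08 ± 0.42, not called without NC2 or HC1. IL1RN changed by 1.46 ± 0.66, with HC2 and HC4 at -2.95 and -3.38 against -5.30 on the highest NC array. Its call was lost in 9 of the other settings, among them the fit with slide as a block. The IL1RN difference within slides was 2.23 on slide 1 and 0.44 on slide 2. The count of called cytokines was 1 without NC2. IL6 was not called (1.08 ± 0.66). HC1 and HC4 stood at -1.58 and -1.83 for IL6 and the other 3 HC arrays, at -4.68, -4.65 and -4.53, lay within the NC range of -5.06 to -4.0. IL10, IL18, TGFB1 and IL15 differed by 0.11, 0.11, -0.04 and -0.19.

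Of 8 tested cytokine receptors, 2 were called higher and 1 lower. IL13RA1, a subunit of the interleukin-13 receptor, rose by 0.55 ± 0.23 and TNFRSF1A, the main receptor for TNF, by 0.41 ± 0.18. TNFRSF11B, the decoy receptor osteoprotegerin, fell by 0.45 ± 0.18, and a second TNFRSF11B probe fell by 0.71 ± 0.27. No receptor was called higher without NC1 or without NC2. The calls of IL13RA1 and TNFRSF1A were lost in 8 and 10 of the other settings, quantile normalization among them. The interferon receptors IFNAR1 and IFNAR2 differed by -0.10 and 0.40 and were not called.

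Chemokines gave 1 call among 8 tested genes, CXCL10, which attracts activated T cells and is induced by interferons. It measured -2.08, -1.37 and -3.21 in NC and 0.69, 4.28, -1.49, 5.55 and 1.99 in HC. HC2 and HC4 were far above the rest and HC3 was within the NC range, so the fetuses differed widely. The spot was saturated on HC4, and with its reading there the change was at least 4.42 ± 1.74, or at least 21.5-fold. The CXCL10 call was lost without NC3, HC2 or HC4. CXCL8, the main neutrophil attractant, had 2 probes of which the dimmer was called. That probe measured -7.83, -8.04 and -7.80 in NC and 0.10, -3.55, -5.29, 0.80 and -8.39 in HC. It was well above background on no NC array and on 4 HC arrays, which makes it at least 6.18-fold higher, while HC5 was lower than any NC array. The brighter CXCL8 probe differed by 3.24 ± 1.68. CXCL1 was saturated on all 8 arrays and can show no change. The chemokine receptors CXCR4, CCR3 and CCR10 differed by -0.41, -0.46 and -0.15 and were not called.

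The interferon-response and antigen-presentation genes separated the HC fetuses from each other. All 7 tested interferon-response genes were positive, with a median of 0.93, but only CXCL10 and IRF1 were called. IRF1, a transcription factor induced by interferon gamma and by NF-kappaB, measured -3.35, -3.85 and -3.91 in NC and -1.43, 0.26, -2.16, 0.97 and -2.13 in HC. No HC array overlapped NC for IRF1, and the change was 2.81 ± 0.80, or 6.99-fold (adjusted p = 0.367). The IRF1 call held in every setting, but the change was 2.05 with normexp correction and 1.90 with the deposited table. The antiviral GTPase MX2 measured 0.28, -0.70 and -1.14 in NC and -1.09, 2.83, 0.71, 4.78 and -0.71 in HC. HC2 and HC4 were again highest while HC1 and HC5 lay within the NC range, and the MX2 difference of 1.82 ± 1.03 did not pass. MX1 differed by 0.76 and ISG15, saturated on 1 HC array, by at least 0.93, without being called. The medians of the 7 genes, taken array by array against the NC mean, were -0.11 for HC1, 2.01 for HC2, 0.43 for HC3, 4.14 for HC4 and 0.08 for HC5. The number called was 4 without HC1 or without HC5, and it was 1 without NC3, without HC2 or without HC4.

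All 7 tested genes of antigen presentation were positive too, with a median of 0.68, and 3 were called. They were PSMB8, a subunit of the immunoproteasome, the T cell co-stimulator CD86 and B2M, the light chain of MHC class I. B2M measured 4.04, 4.09 and 4.00 in NC and 3.83, 5.2, 4.82, 5.12 and 4.65 in HC. HC1 was below all NC arrays for B2M and the other 4 HC arrays were above them, with a change of at least 0.68 ± 0.25, since the spot was saturated on 1 HC array. PSMB8 followed the same order, at -3.14, -3.16 and -3.54 in NC and -3.42, -0.58, -1.93, -0.69 and -2.48 in HC, a change of 1.46 ± 0.56. Both PSME2 probes, which measure a subunit of the proteasome activator induced by interferon gamma and which were on none of the lists, rose by 0.70 ± 0.24 and 0.63 ± 0.24, also with HC1 lowest. CD86 rose by 0.75 ± 0.33, and its dimmer probe was at least 2.10-fold higher. CD40, the co-stimulatory receptor of antigen-presenting cells, measured -3.77, -1.21, -4.33, 1.55 and -4.26 on HC1 to HC5 against -4.81 to -4.28 in NC. HC3 lay within the NC range for CD40 and HC5 barely above it, and the difference of 2.12 ± 1.07 did not pass. For the 7 genes the medians by array were -0.11, 1.16, 0.65, 1.06 and 0.26 on HC1 to HC5. The number called was 5 without HC1, 1 without NC3 and 0 when the 8 NC and HC arrays were fitted alone.

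Adhesion molecules of vessels and leukocytes included SELP, the named gene with the largest fitted rise. Of 9 tested genes, 3 were called higher and none lower. It encodes the P-selectin that endothelium and platelets expose to catch leukocytes, and had a pair of probes. The brighter one was at -4.98, -5.33 and -6.88 in NC and -0.23, -0.16, -2.16, 1.37 and -3.97 in HC. All HC arrays lay above all NC arrays for SELP, HC5 by the smallest margin, and the change was 4.70 ± 1.09 (adjusted p = 0.342). The other SELP probe was well above background on no NC array and was at least 14.6-fold higher in the main processing. Its size depended on background handling, with a change of 4.98 in the main fit, 2.25 with normexp correction and 1.85 with the deposited table. So did that of the brighter SELP probe, at 2.71 with normexp correction and 2.31 with the deposited table. ICAM1, the endothelial ligand of leukocyte integrins, measured -5.24, -5.90 and -5.43 in NC and -3.05, -2.25, -4.10, -0.80 and -5.32 in HC. HC5 fell within the NC range for ICAM1, and the change was 2.42 ± 0.80, or 5.34-fold. The ICAM1 change was 1.12 with normexp correction and 0.89 with the deposited table. ITGAM, the alpha chain of the integrin that binds ICAM1, rose by 0.74 ± 0.33. Its call was lost in 11 of the other settings, slide as a block among them. E-selectin (SELE), PECAM1 and the integrin chains ITGB2 and ITGB1 differed by -0.28, 0.03, 0.38 and 0.19. None of SELP, ICAM1 and ITGAM was well above background on every NC and HC array.

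Some markers of myeloid cells and lymphocytes were also called higher, though not evenly over the HC fetuses. Of 6 tested markers of microglia and macrophages, 5 were called higher, CD14, CYBB (the catalytic subunit of the phagocyte NADPH oxidase), FCGR1A (the high-affinity IgG receptor), ITGAM and C5aR, while CTSS differed by 0.27 ± 0.27. Their summed signal, on the linear scale and relative to the 75th percentile, ranged from 3.14 to 3.65 in NC and from 3.05 to 8.61 in HC. HC2 was highest, HC1 lay below every NC array, and HC5 was within the NC range at 3.54. This sum is mostly the signal of CTSS, the member that was not called. On HC1 CD14 and C5aR lay above every NC array, and 3 of the 6 markers were above their NC means. The count of markers called higher depended on single arrays. It was 1 without NC1 or HC2, 2 without NC2, and 3 without NC3, HC1, HC3 or HC4. C5aR, the receptor of the complement fragment C5a, was the steadiest of them, at -0.97, -1.06 and -1.05 in NC and -0.57, 0.03, -0.33, -0.68 and -0.81 in HC. Its groups did not overlap, and it rose by 0.55 ± 0.17 with a second C5aR probe at 0.65 ± 0.15. The complement protein C3 differed by 0.27.

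Of 3 tested T and B cell markers, 2 were called higher and their summed signal was 0.150 to 0.199 in NC and 0.203 to 0.436 in HC. CD5, a T cell surface receptor, measured -4.18, -4.33 and -4.26 in NC and -3.17, -2.35, -3.43, -3.03 and -3.64 in HC. The groups did not overlap and CD5 rose by 1.13 ± 0.41, a call that held in every setting. CD3D, a chain of the T cell receptor complex, rose by 1.58 ± 0.56, but this probe was well above background on only 1 NC array. Its dimmer probe differed by 0.73 ± 0.75, the CD3D call was lost without NC1 or NC2, and CD3E differed by 0.66 ± 0.46. The neutrophil markers CATHL3, a cathelicidin, and LTF, lactoferrin, were not called. CATHL3 measured -3.65, -1.90 and -2.65 in NC and -1.61, 1.1, 1.36, -1.39 and 0.17 in HC. All HC arrays were above all NC arrays, yet the CATHL3 difference of 2.66 ± 1.43 did not pass. The summed signal of the 2 neutrophil markers ranged from 0.125 to 0.338 in NC and from 0.385 to 2.77 in HC. The erythroid markers HBB and EPOR summed to 6.23 to 18.1 in NC and 5.29 to 22.8 in HC, and neither was called. The part of these cell types in the rises was not tested.

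Of the genes outside the lists given next, SLC11A1 and LYZ were taken by a rule on size and overlap. The others were picked after their values were seen. SLC11A1, the metal transporter of the phagosome, measured -4.16, -4.37 and -4.43 in NC and -2.57, -0.31, -1.19, -3.05 and -3.21 in HC. No arrays overlapped, which the rule required of the dimmer SLC11A1 probe. Both SLC11A1 probes were called, with changes of 2.25 ± 0.58 and 2.28 ± 0.69. Lysozyme (LYZ) rose by 2.01 ± 0.89, with HC2 at -2.11 and HC3 at -3.58 against -5.63 on the highest NC array. The LYZ call was lost in 8 of the other settings. Mast cell proteinase-3 (MCP-3) rose by 2.19 ± 0.97 and by 2.81 ± 1.04 with its 2 probes. HC2, HC4 and HC5 were high at -0.42, -0.90 and -0.92 with the brighter MCP-3 probe, HC1 and HC3 were near NC at -3.07 and -4.60, and NC spanned -5.00 to -3.45. Of the subunits of the high-affinity IgE receptor, FCER1A was at least 1.26-fold higher with 1 probe while its brighter probe differed by 1.78 ± 0.91, and FCER1G rose by 0.45 ± 0.21. The kappa light chain gene LOC100037688 was, with the probe that was called, well above background on no NC array and at least 1.43-fold higher, while its brighter probe differed by 0.53 ± 0.64. Immunoglobulin genes form a family of near-identical copies, so that value is uncertain.

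The hypoxia-inducible factors and their direct targets came next. Of 18 tested genes, 4 were called higher and none lower, and the list's median was 0.04. The clearest was SLC2A3, which encodes the neuronal glucose transporter GLUT3. It measured 3.46, 3.12 and 3.37 in NC and 5.05, 4.45, 4.49, 4.14 and 3.73 in HC. All HC arrays lay above all NC arrays for SLC2A3, HC1 highest and HC5 lowest. The change was 1.05 ± 0.22, or 2.08-fold (adjusted p = 0.280), with 1.46 within slide 1 and 0.75 within slide 2, and the second probe gave 0.93 ± 0.22. HIF1A, the oxygen-regulated subunit itself, measured -3.90, -3.84 and -4.26 in NC and -3.55, -3.02, -3.48, -3.33 and -3.68 with A_70_P041637 in HC. Its groups did not overlap, the rise was 0.59 ± 0.20, and the overlapping probe shown above gave 0.64 ± 0.19. LDHA, the muscle-type lactate dehydrogenase, rose by 0.59 ± 0.23, with HC2 and HC3 at 2.66 and 2.84 and the other 3 HC arrays at 1.83 to 1.89, just above the NC maximum of 1.77. The inducible nitric oxide synthase NOS2 rose by 0.68 ± 0.25, but this signal was near background and the second NOS2 probe differed by 0.14 ± 0.25. The HIF1A call was lost without NC3, that of LDHA without NC2, NC3 or HC2 and that of NOS2 without NC1.

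The remaining hypoxia genes were not called. The vessel growth factor VEGFA differed by 0.07 ± 0.42, its receptors FLT1 and KDR by 0.69 and -0.15, EPAS1 (HIF-2 alpha) by 0.21, the glycolytic enzymes ALDOA, GAPDH and HK1 by 0.02, -0.19 and -0.07, and the vasoconstrictor EDN1 by 0.65 ± 0.48. The list's count was 2 without NC3. Outside the list, HIF3A, a subunit that can restrain the others, rose by 0.90 ± 0.33 with 1 probe and differed by 0.55 ± 0.33 with the other. RCAN1, an inhibitor of calcineurin, measured 3.36, 3.33 and 3.35 in NC and 3.97, 3.75, 3.84, 4.28 and 3.57 in HC. The NC arrays were nearly identical and no HC array reached down to them, giving a RCAN1 rise of 0.53 ± 0.15. VDUP1, a name for the glucose-responsive inhibitor of thioredoxin, rose by 0.74 ± 0.34 with the dimmer probe, and HC5 lay below all NC arrays there.

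Metabolic genes went in both directions. Of 19 tested genes of glucose and amino acid metabolism, 2 were called higher, SLC2A3 and the lipid-sensing receptor PPARG (0.36 ± 0.16), and 2 lower, FBXO32 and SHMT1, with a median of -0.09. The PPARG call was lost in 10 of the other settings, slide as a block among them. PDXK, the kinase that makes the active form of vitamin B6, measured 0.01, 0.14 and 0.16 in NC and 1.41, 1.97, 1.16, 2.20 and 0.55 in HC. No array overlapped, and PDXK rose by 1.36 ± 0.32, or 2.56-fold (adjusted p = 0.342), a call kept in every setting. MTHFD2, a mitochondrial enzyme of folate metabolism, rose by 1.11 ± 0.34 and 1.26 ± 0.33 with its 2 probes. In contrast SHMT1, which passes a carbon unit from serine to folate with vitamin B6 as cofactor and is called SHMT2 in the array's annotation, measured -0.83, -0.63 and -0.41 in NC and -1.15, -1.01, -1.75, -1.09 and -1.08 in HC. The groups did not overlap, with HC3 lowest, and SHMT1 fell by 0.59 ± 0.22. Its second probe shares 59 of 60 bases with the first and fell by 0.66 ± 0.20.

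Immediate early genes encode transcription factors that cells make within minutes of a stimulus. All 5 tested differences were positive and JUNB alone was called, at 1.07 ± 0.45. JUNB measured -2.81, -3.25 and -3.62 in NC and -1.24, -2.0, -2.50, -1.48 and -3.58 in HC, so that HC5 lay within the NC range and the other 4 above it. The JUNB call was lost without NC2, NC3, HC1, HC2 or HC4, and without HC5 3 genes of the list were called. The brightest FOS probe measured 0.33, -0.17 and -0.39 in NC and 1.65, 0.59, -0.08, 1.66 and -0.61 in HC, a difference of 0.72 that did not pass. Of the 4 FOS probes the dimmest passed (1.03 ± 0.42), and EGR1 differed by 0.08 ± 0.13. Outside the list, CREM, a cyclic AMP-responsive factor, rose by 1.20 ± 0.26, and its NC arrays at -4.84 to -4.37 did not overlap its HC arrays at -4.02 to -2.52. CEBPB, a factor of the acute-phase response, rose by 1.61 ± 0.57, with HC5 at -5.06 inside the NC range. ZFP36, which shortens the life of cytokine messages, rose by 0.41 ± 0.16 with its brighter probe, ETS2 by 0.75 ± 0.22, and RGS2, a brake on G protein signalling, by 0.60 ± 0.15. CCN1, a matrix protein of the early growth response, rose by 1.64 ± 0.59. HC1 and HC4 were far above NC for CCN1, at -0.80 and -0.11, whereas HC3 and HC5, both at -3.29, were within the NC range of -3.68 to -3.26.

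Apoptosis genes gave 2 rises, both of genes that oppose cell death, among 6 tested. BCL2 measured 1.52, 1.31 and 1.36 in NC and 1.87, 1.77, 2.24, 1.78 and 1.56 in HC. No array overlapped, and BCL2 rose by 0.45 ± 0.17, with the same size in its second probe. MCL1 rose by 0.67 ± 0.28, with HC3 and HC5 at the NC level and HC4 highest. The BCL2 call was lost without NC2 and the MCL1 call without NC1, NC2, NC3, HC2 or HC4, so that the number called was 0 without NC2, and it was 3 without HC1 or HC3. The death receptor FAS differed by 0.97 ± 0.46, and BAX and BAD by -0.11 and -0.07. None of 9 tested stress and antioxidant genes was called, among them the chaperones HSPA5 (-0.06) and HSP90AA1 (-0.11).

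The hormonal stress axis gave 1 call among 10 tested genes. STAR, which carries cholesterol into mitochondria for steroid synthesis, was well above background on no NC array. It measured -7.59, -7.86 and -6.32 in NC and -4.36, -4.81, -5.08, -5.64 and -5.87 in HC. The HC arrays were all above the NC arrays, at least 1.67-fold higher, and its other probe was at least 1.02-fold higher. CYP11A1, which makes the first steroid from cholesterol, passed with its dimmer probe (at least 1.17-fold) and differed by 0.77 ± 0.61 with the brighter. CRHBP, the binding protein of corticotropin-releasing hormone, rose by 0.71 ± 0.29 with 1 probe and differed by 0.65 ± 0.33 with the other. The glucocorticoid receptor NR3C1 measured -4.26, -4.26 and -4.31 in NC and -4.96, -5.65, -4.57, -4.34 and -4.34 in HC. HC1 and HC2 were the low arrays for NR3C1, and the difference of -0.49 ± 0.28 did not pass. POMC differed by 0.20 ± 0.54, the enzyme HSD11B1 that regenerates active glucocorticoid by -0.19 and the receptor CRHR1 by -0.51. The number called higher was 3 without NC1 and 2 without HC1, and with a replicate block 1 gene was called higher and 2 lower. STAR and CYP11A1 were near background, and their cellular source was not tested.

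No hypothalamic peptide was called among 12 tested, although 10 differences were positive with a median of 0.40. Without HC1 or HC4, 2 peptides were called higher, without NC1 1 was, and the median ranged from 0.16 without HC3 to 0.72 without NC1. AGRP, an appetite-stimulating peptide of the arcuate nucleus, spanned -5.81 to -0.89 in NC and -4.65 to 1.57 in HC, and NPY, made in the same neurons, spanned -0.42 to 1.59 and -0.17 to 3.39. HC3 held the highest value of both genes, and the median change of the 12 peptides on HC3 was 1.5, against -0.06 on HC4 and -0.01 on HC5. The 6 tested markers of the anterior pituitary, which lies below the hypothalamus, were likewise highest on HC3, with a median of 2.01 above NC, and none was called. Their summed signal was 6.08 to 7.40 in NC and 6.08 to 9.86 in HC. OXT, NPY and POMC, defining peptides of the labelled tissue, were well above background on every NC and HC array. The 8 hypothalamic neuron markers summed to 24.4 to 45.6 in NC and 27.1 to 58.0 in HC. TTR, the marker of choroid plexus, spanned 1.29 to 4.80 on the linear scale in NC and 0.160 to 11.1 in HC. The part of dissection in any value was not tested.

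Of 20 tested receptors and transporters of neurotransmitters and hormones, none was called higher and 1 lower, and 1 was called higher without NC1, NC3 or HC1. The gene called lower, GLT-1, the glutamate transporter of astrocytes, fell by 1.13 ± 0.45, but its probe was well above background on only 1 NC and 1 HC array, and the call was lost without NC3, HC2 or HC4. The glutamate receptor subunits GRIA1, GRIA2, GRIA3, GRIA4 and GRIN1 differed by 0.27, -0.01, -0.12, -0.13 and -0.26, none of them called. The orexin receptor HCRTR1, outside the list, rose by 0.44 ± 0.19, and the thyrotropin receptor TSHR by 1.67 ± 0.64 with the brighter of its probes. The other astrocyte markers GFAP and GJA1 differed by 0.49 and 0.14 and were not called, and AQP4 was saturated on most arrays.

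Of 10 tested genes of the insulin-like growth factor axis, 1 was called higher and 1 lower, with a median of 0.06. Over all tested probes 4.22% were called higher and 3.93% lower, so single calls say little about the axis. IGFBP3, the main carrier of insulin-like growth factors, measured -4.18, -5.48 and -4.85 in NC and -3.45, -1.69, -1.67, -2.69 and -4.49 in HC. HC2 and HC3 were highest and HC5 was within the NC range, and IGFBP3 rose by 2.04 ± 0.62, or 4.11-fold. With the deposited table the IGFBP3 change was 0.79. IGF1 measured -4.15, -4.43 and -4.31 in NC and -4.75, -4.74, -5.15, -4.74 and -4.53 in HC. Its HC arrays all lay below the NC arrays, and IGF1 fell by 0.49 ± 0.21, a call lost with slide as a block and without NC1, NC3, HC1, HC2, HC3 or HC4. The other 8 tested genes of this axis were not called, with IGF1R at 0.15 and IGF2 at 0.03. FGF2, the basic fibroblast growth factor, measured -0.83, -0.92 and -0.86 in NC and 0.30, -0.49, 0.22, 0.27 and -0.45 in HC. The HC arrays formed a high trio and a lower pair, HC2 and HC5, all of them above NC, with a FGF2 rise of 0.84 ± 0.23 and 0.87 ± 0.22 in its 2 probes. The epidermal growth factor receptor ligand AREG rose by 1.04 ± 0.36 and the connective tissue growth factor gene LOC100037681 by 1.19 ± 0.45. FGF2, AREG and LOC100037681 were on none of the lists and were picked after their values were seen. Of 17 tested matrix genes, proteases and inhibitors, PLAUR, the urokinase receptor, was called higher (1.29 ± 0.44) and none lower, with a median of -0.05. The PLAUR call was lost without NC1, and without HC3 2 of these genes were called. Of 7 genes of tight junctions and barrier transport, ABCB1, the drug efflux pump of brain capillaries, rose by 0.48 ± 0.18, and OCLN and CLDN1 differed by -0.60 ± 0.31 and 0.99 ± 0.52. The ABCB1 call was lost without NC2, and without HC5 or with a replicate block 1 barrier gene was called higher and 2 lower.

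Falls were smaller than rises and rarely exceeded 1 log2 unit, which 20 lower and 190 higher probes did. FBXO32, the muscle-wasting ubiquitin ligase atrogin-1, measured 1.07, 1.34 and 1.25 in NC and 0.75, -0.17, 0.22, 0.59 and 0.32 in HC. All HC arrays lay below NC, and FBXO32 fell by 0.87 ± 0.29, to 0.545 of the NC level (adjusted p = 0.440). The FBXO32 call was kept in every setting. LPAR1, a lysophosphatidic acid receptor of oligodendrocytes and other glia, measured -0.11, 0.64 and 0.12 in NC and -0.34, -0.82, -1.19, -0.17 and -0.35 in HC. These groups were separated by a narrow gap, the fall was 0.79 ± 0.36, and LPAR1 was not called with slide as a block or without NC2, NC3, HC2 or HC3. CYP2J, a cytochrome that makes epoxides of arachidonic acid, fell by 0.57 ± 0.20 with 1 probe, with a difference of -0.96 within slide 1 and -0.16 within slide 2, and its brighter probe differed by -0.51 ± 0.25. SMPD1, the acid sphingomyelinase, fell by 0.42 ± 0.16.

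The falls given next were taken by a rule on size and overlap or were picked after their values were seen. SCD5, a stearoyl-CoA desaturase of the brain, measured 5.32, 5.46 and 5.35 in NC and 5.03, 4.99, 4.78, 4.86 and 5.22 in HC. All HC arrays were below NC, and SCD5 fell by 0.40 ± 0.13. TM7SF2, a sterol reductase, fell by 0.39 ± 0.13 and 0.34 ± 0.13 with its 2 probes. SQLE, squalene epoxidase, fell by 0.24 ± 0.10, HACD1, an enzyme of fatty acid elongation, by 0.37 ± 0.16, and ME1, the malic enzyme that supplies NADPH, by 0.31 ± 0.10. The fatty acid synthesis genes FASN, ACACA and SCD of the metabolic list differed by -0.10, 0.42 and -0.15 and were not called. CBX5, a heterochromatin protein, fell by 0.40 ± 0.12, the mitochondrial aminotransferase BCAT2 by 0.28 ± 0.10, the centromere protein CENP-B by 0.18 ± 0.07, the cyclin-dependent kinase CDK4 by 0.25 ± 0.09 and the small GTPase RAP2A by 0.57 ± 0.18. Without NC2 the calls of CYP2J, SMPD1, TM7SF2, HACD1, BCAT2 and CENP-B were lost. With normexp background correction CBX5, ME1, SQLE and CENP-B lost their calls. COL3A1 and KDR fell with 1 dim probe each (-0.69 ± 0.26; -0.67 ± 0.28) but not with their brightest probes (-0.19 and -0.15).

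**Figure D2:**
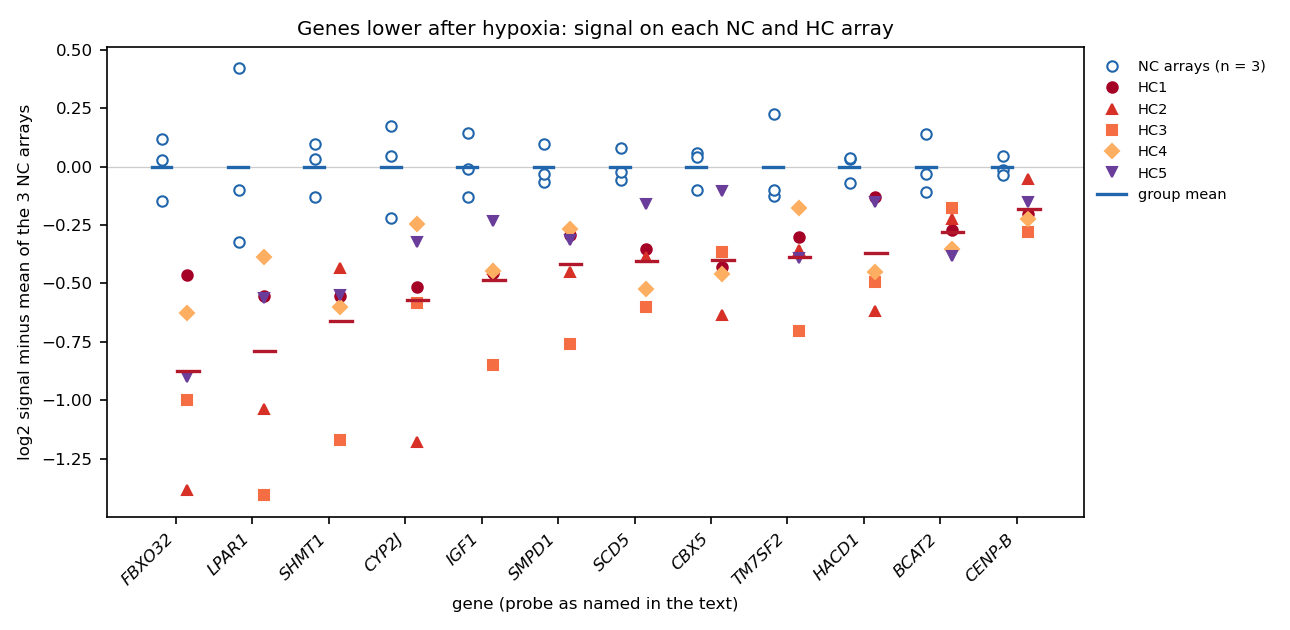
Signal of the 12 named genes with the largest falls among those whose NC and HC arrays did not overlap (y axis, log2 signal minus the mean of the 3 NC arrays; x axis, gene), with open blue circles for NC, filled symbols for HC1 to HC5 and short lines for the group means. The y axis spans a far narrower range than for the rises, and FBXO32 has the largest mean fall, 0.87.

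Probes for the same gene did not always agree. Of 417 genes with more than 1 tested probe, 70 had a called probe, and in 33 of these every probe was called, in 37 only some. UGT1A9, a glucuronosyltransferase listed as SHEUGT1A07 on the array, was at least 1.89-fold higher with 1 probe and differed by 0.67 ± 0.42 with the other, and it belongs to a family of near-identical copies. AQP3, a channel for water and glycerol, was well above background on no NC array and on 2 HC arrays with the probe that was called. The fitted difference there was 1.65 ± 0.58, but its HC mean did not exceed the floor used for bounds, so no rise can be stated. The brighter AQP3 probe differed by 0.23 ± 0.59.

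The list that the study itself followed by PCR on these samples had 10 tested genes, of which 9 were called higher, CXCL10, PTGS2, PTX3, TNF, NFKBIA, CD14, TLR2, IL1B and TLR4. Since the study chose it on these samples, the list is not independent evidence of a direction. Its count was 5 without NC3. Lists of cell machinery gave no calls. The 16 ribosomal protein genes, many of them saturated on every array, lay between -0.11 and 0.13, and the 7 genes of the mitochondrial respiratory chain between -0.16 and 0.24. Against the 4.22% of all probes called higher, the members called higher were 6 of 16 pattern recognition genes, 3 of 9 adhesion genes, 3 of 7 antigen-presentation genes and 5 of 6 microglia and macrophage markers, while neurotransmitter genes (0 of 20), peptides (0 of 12) and matrix genes (1 of 17) were near that share. Lists between these included cytokines (3 of 16), hypoxia-inducible factor targets (4 of 18) and chemokines (1 of 8). These are counts of genes by their brightest probe, and the lists overlap. The 4.22% is a share of probes, most of them without a name, and so not a like base for named genes. The array held 1024 gene names, tested or not, and 83 named genes were called higher by their most changed probe.

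**Figure D3:**
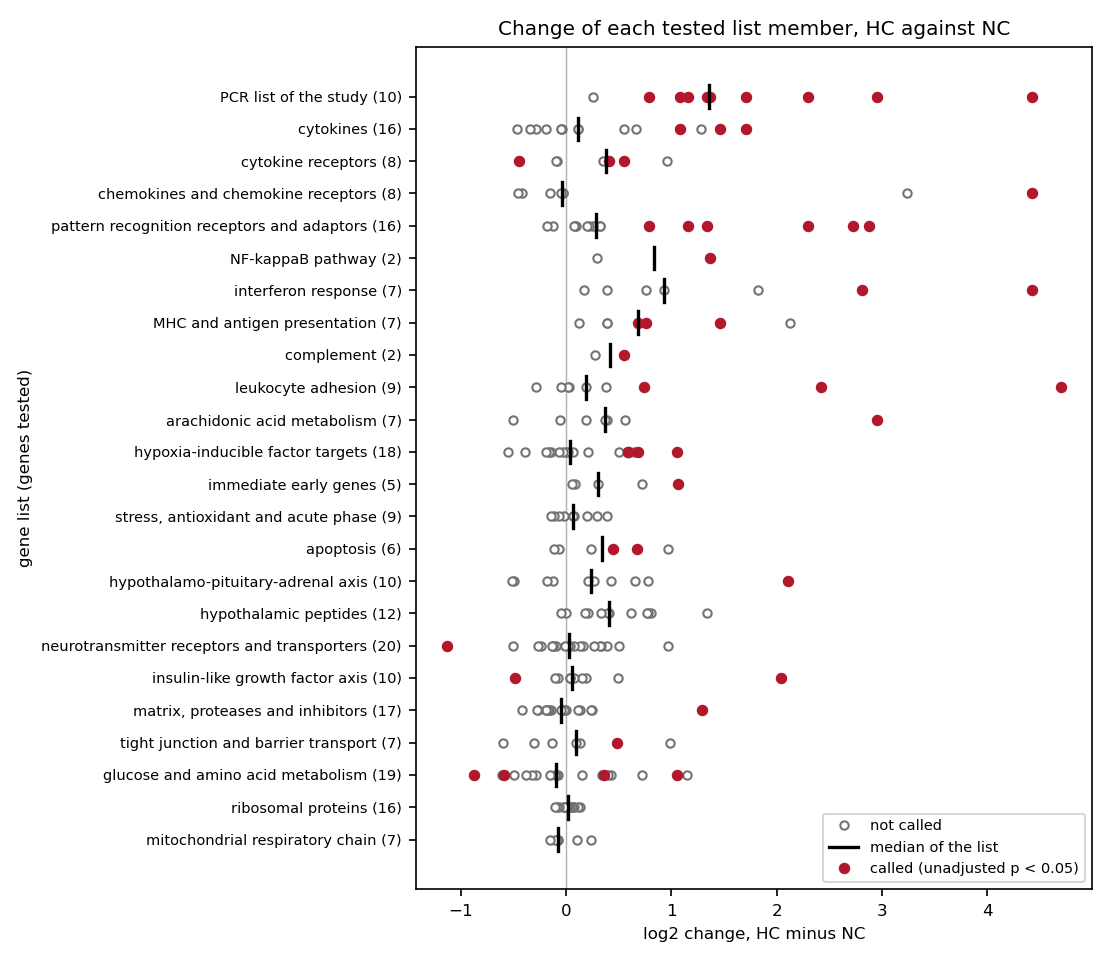
Change of each tested member of 24 gene lists (x axis, HC minus NC in log2; y axis, list with its number of tested genes), with filled red points for called members, open points for the rest and a black bar for the list's median. The pattern recognition, interferon and antigen-presentation lists reach far to the right while the ribosomal proteins stay between -0.11 and 0.13.

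Most called probes carry no gene name. The probe with the greatest rise of these, A_70_P058116, measured -5.45, -3.62 and -5.89 in NC and -2.45, 2.92, -2.46, 3.59 and -0.44 in HC, a change of 5.22 ± 1.47, again with HC2 and HC4 highest. A_70_P061331 measured -4.59, -5.37 and -5.07 in NC and 1.5, -1.24, -1.10, 0.55 and -3.49 in HC. HC1 was the highest array here, and the change was 4.25 ± 1.01. A_70_P022141 fell by 1.39 ± 0.57, from 2.27, the middle NC array, to values between 0.11 and 1.76. A_70_P049576 fell by 1.27 ± 0.35. These 4 probes had the largest rises and falls among called probes without a name whose NC and HC arrays did not overlap. Their lack of overlap was therefore fixed by the choice. They are printed so that they can be identified.
A_70_P058116: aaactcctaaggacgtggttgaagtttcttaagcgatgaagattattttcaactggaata
A_70_P061331: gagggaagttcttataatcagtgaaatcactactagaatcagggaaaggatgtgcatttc
A_70_P022141: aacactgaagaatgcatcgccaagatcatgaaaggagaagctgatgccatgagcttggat
A_70_P049576: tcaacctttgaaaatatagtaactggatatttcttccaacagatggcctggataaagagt

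The HC fetuses differed in which genes were high. Over the 83 named genes called higher, the median difference from the NC mean was 0.92 for HC1, 1.47 for HC2, 0.94 for HC3, 1.31 for HC4 and 0.45 for HC5. HC2 was the highest HC array for 35 of them, HC4 for 22, HC3 for 13, HC1 for 9 and HC5 for 4. HC5 lay within or below the NC range for 23 of the 83 genes, HC1 for 14, HC3 and HC4 for 6 each and HC2 for 3. CXCL10, IRF1, ICAM1 and TNF were highest on HC2 or HC4. SLC11A1 and LYZ were highest on HC2 and next on HC3, IL1B and CCN1 were highest on HC4 and next on HC1, and SLC2A3 and JUNB were highest on HC1. Within slides the median change of the 83 genes was 1.39 on slide 1 and 0.84 on slide 2, and that of the 28 falling genes -0.42 and -0.41. These genes were chosen by their change on all the arrays, so the shared sign is no separate evidence. With slide as a block, 79 of the 83 and 21 of the 28 were still called. In all 8 fits that left out 1 NC or HC array, 33 of the 83 and 6 of the 28 were called, while 51 and 21 were with the deposited log2 values.

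Ketamine-treated fetuses offer the same contrast on other arrays. For HK against NK, 1065 probes were called, 8.69% of those tested. The interaction, which tests whether the change after hypoxia differed without and with ketamine, called 466 probes, 3.8% of those tested, of which 305 were more positive without ketamine, and none passed adjustment (limma, smallest adjusted p = 0.994). The split depended on the scaling, since 181 of 412 were more positive without ketamine with quantile normalization and 161 of 411 with the deposited table. Of the 83 named genes higher in HC than NC, 66 were also positive in HK against NK, with a median of 0.35, and 11 were called there. Of the 28 lower genes, 22 were negative, with a median of -0.15, and 6 were called. Among all called probes, 403 of the 517 higher and 391 of the 481 lower had the same sign there, and 49 and 60 were called with that sign. The share of all tested probes positive in HK against NK was not determined. These counts therefore have no base to be set against and are no measure of replication. SELP rose by 3.24 with its brighter probe in HK against NK, PTGS2 by 1.32 and SLC2A3 by 0.46, all of them called there, and the interaction did not pass for any of these 3 genes. It did pass for FGF2, which went from 0.84 without ketamine to -0.09 with it, for CREM, from 1.20 to 0.05, and for C5aR, from 0.55 to -0.16. The interaction passed for 13 of the 83 genes and 4 of the 28. These genes were chosen by their change without ketamine, which is 1 side of that contrast, so shares above 3.8% come with the choice.

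**Figure D4:**
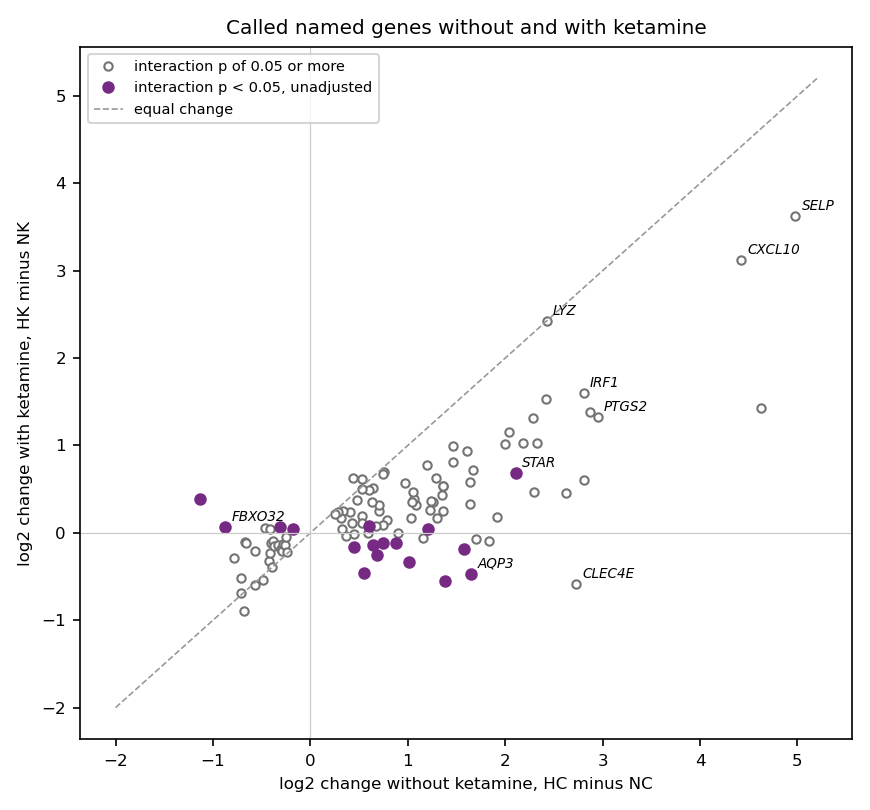
Change after hypoxia with ketamine (y axis, HK minus NK in log2) against the change without it (x axis, HC minus NC in log2) for the 111 named genes called in HC against NC, each by its most changed called probe. Filled purple points have an interaction p under 0.05 without adjustment, the dashed line marks equal change, and SELP lies at 4.98 and 3.62.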

How the data were processed

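Cyanine 3-labelled RNA of each fetus was put on a 1-colour Agilent sheep array with 60-base probes. The deposited scanner files, written by Feature Extraction 10.1.1.1 per the file headers (a later version than the methods name), hold intensity values with background and spatial trends already removed and not normalized between arrays. The authors also deposited a log2 value table with no stated method, used here only as an alternative. Control spots and outlier spots were left out, the log2 processed signal was shifted by each array's 75th percentile (an intensity of 1248 to 1597), and spots of a probe were averaged. Probes well above background on at least 3 of 16 arrays were tested. A linear model of the 4 groups was fitted to all 16 arrays with limma 3.58.1 in R 4.3.3, with empirical Bayes moderation and two-sided tests. The procedure was tested on simulated data. The number of arrays limits the precision.

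Named genes were, by rule, the 15 largest rises and 12 falls among called named probes whose NC and HC arrays did not overlap, each gene by its most changed probe, and the called members of the gene lists, each gene by its brightest probe. A few genes are not reported here and left out of counts of named genes. Other named genes were picked after their values were seen. The comparison and the lists were chosen with earlier results of these data known. A bound ("at least") sets the mean of HC, over all its arrays, against an NC mean in which each array counts with the probe's signal or, where that is brighter, the lowest signal well above background. Bounds hold for the main processing only. With the deposited table the changes of STAR and UGT1A9 were 0.24 and 0.27 log2 units, against 2.11 and 2.33 in the main fit. Names came from the array's annotation, updated through a table of sheep RefSeq genes for 727 of 750 probes with a RefSeq accession. Many remain old, and no coordinates were derived. Alternatives were quantile normalization, normexp correction, the deposited table, other filters on dim probes, slide as a block, NC and HC alone, array weights, a replicate block and leaving out each array.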

Additional observations from a re-analysis of the deposited data

Results flagged for a closer look

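Among the genes taken by the naming rule, which leaves out FGF2 and CREM, the change after hypoxia differed for 12 between fetuses without and with ketamine by limma's interaction term at an unadjusted p under 0.05. None of these passes adjustment over all probes, and 3.8% of all probes reach that threshold. Since the genes were chosen by their change without ketamine, neither their number nor the direction of the difference carries information. More positive without ketamine were AQP3 by 2.12 log2 units (1.65 without and -0.47 with ketamine), CD3D by 1.76, STAR by 1.43 (2.11 and 0.68), FCGR1A by 1.34, TLR2 by 1.03 (1.16 and 0.12), IL13RA1 by 1.01 (0.55 and -0.46), NOS2 by 0.94, C5aR by 0.72 (0.55 and -0.16) and BCL2 by 0.61. The AQP3 and STAR probes were well above background on no NC array, so the sizes of their differences are uncertain. More negative without ketamine were GLT-1 by -1.52, FBXO32 by -0.94 (-0.87 without and 0.07 with ketamine) and CENP-B by -0.23.

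Within the 5 HC arrays, SHMT1 on HC3 stood apart from the others, at -1.83 with A_70_P030281 against -1.26 to -1.09 on the other 4, and at -1.75 with A_70_P030282 against -1.15 to -1.01. The probes share 59 bases and count as 1 observation. Chance gives such a value in about 1 in 20 groups.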

How the results depend on the processing

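The number of probes called in HC against NC, 998, was 620 without NC2 and 1317 without HC1, the lowest and highest of the 8 fits that left out 1 array. After adjustment the count was 0 to 64 in those fits and 0 in every other setting, with 64 without HC5. With a replicate block 1206 probes were called and 0 passed adjustment (smallest adjusted p = 0.0529), with 555 for the interaction. Same-numbered NC and HC arrays correlated at 0.048, 0.090 and -0.058 in their deviations from their group means. Only NC with HC was compared, and littermates, which shared their oxygen treatment, would not be among those pairs. Whether the numbers pair samples in other groups was not tested. The interaction called 772 probes with array weights, an alternative chosen after seeing the data, against 466, and 328 to 666 when 1 array was left out. Higher probes were 51.8% of the calls, 47.8% with quantile normalization, 45% with normexp correction and 44.6% with the deposited table. Of 59 named-gene values none changed sign in any setting, 19 kept their call in all of them and 40 lost it in at least 1, most often without NC2, where 24 did. Of these values, 43 were well above background on all NC and HC arrays. Signal over background limits the rest, which are SELP, CLEC6A, CLEC4E, UGT1A9, STAR, LYZ, AQP3, CD3D, IL1RN, ICAM1, ITGAM, NOS2, GLT-1, PLAUR and CYBB. With the deposited table CD3D, IL1RN and PLAUR changed by 0.21, 0.31 and 0.34 log2 units, against 1.58, 1.46 and 1.29 in the main fit. Sizes among the 43 could depend on the processing too. TNF, IGFBP3 and SLC11A1 changed by 0.59, 0.79 and 0.85 with the deposited table, against 1.70, 2.04 and 2.28 in the main fit. Those of PTGS2, NFKBIA and SLC2A3 were 2.39, 1.34 and 1.02, against 2.95, 1.37 and 1.05.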
